A study of Mus musculus with 5 samples.

Results

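Liver RNA of mice given atorvastatin on an atherogenic diet was set against liver RNA of mice given the same diet alone. The comparison uses 2 of the 5 arrays of the study, 1 on each side, and takes the log2 ratio of the signals of every annotated gene. Each array was hybridised with biotin-labelled cRNA made from RNA of pooled livers of C57B/L mice, and the sources used here do not say how many livers a pool held. All mice were 8 weeks old, were first maintained for 2 weeks and then received their feed. The diet group ate the atherogenic diet, a feed used to raise blood cholesterol, for 10 weeks. The atorvastatin group ate it for the same 10 weeks and received atorvastatin in the final 3. The other arrays come from mice on standard chow for 10 weeks, on chow for 1 week and on the diet for 1 week. The labels of the last of these conflict: its source name says chow, whereas its title, description and protocols say the diet. It was grouped by its title. No transgene, deletion or other agent is named for any group. The sources used here give neither the sex of the mice nor the dose and route of the drug nor what the diet contained. With 1 array per group there is no replicate error and no test: each value describes 1 pool, and the number of arrays limits the precision of every ratio.

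Statins inhibit the mevalonate pathway, from which cholesterol and prenyl groups are made. When sterols are scarce in a hepatocyte, the transcription factor SREBP-2 is released from the endoplasmic reticulum and raises the genes of cholesterol synthesis and uptake. Its relative SREBP-1c, encoded by Srebf1, drives fatty acid synthesis together with the glucose-sensing factor ChREBP, encoded by Mlxipl. The liver also makes the acute phase proteins, such as the serum amyloids A, which it secretes in inflammation under the control of interleukin-6, interleukin-1 and tumour necrosis factor.

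The deposited values are MAS5 signals, a summary of the brightness of all probes for a transcript on a linear scale. Signals under 138.9, the 40th percentile of all signals, were set to that floor, and a gene counted as measured if at least 1 of the 2 arrays lay above it. A gene with 1 side at the floor has only a bound, written as at least N-fold. Each gene is given by its brightest probe set. All 13 hepatocyte markers with a named probe set, of 18 listed, lay above the floor, and their summed signal was 351483 with atorvastatin and 346965 on the diet alone, inside the 262472 to 477850 of the other 3 arrays. Between 57.2% and 61.3% of probe sets lay above the floor on the 5 arrays, and for the Gapdh control the signal at the 3' end was 0.783 to 1.01 times that at the 5' end. The atorvastatin array stood apart in the control probe sets for 18S ribosomal RNA, where its geometric mean was 13944 and those of the other arrays 437 to 2185. For the control transcripts added for hybridisation, the geometric mean was 6192.5 on chow at 10 weeks and 1075 to 2016 on the other arrays. Whether either control bears on the gene signals was not tested.

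Across the whole table the share of genes past 2-fold was about that between the 2 chow arrays. Of 9314 measured genes, 201 (2.16%) were at least 2-fold higher with atorvastatin and 202 (2.17%) at least 2-fold lower, 4.33% together. The counts of every gene list below are to be read beside these shares. Between chow at 10 weeks and chow at 1 week, 403 of 9101 genes passed the same rule (4.43%), and between the diet at 10 weeks and the diet at 1 week 777 of 9094 did (8.54%). The chow pair differs in age and time on feed, so its share is not noise alone. The median log2 ratio of atorvastatin over diet was -0.02, and 95% of genes lay within 1.95-fold of equality on either side. At 4-fold the counts were 11 higher and 11 lower, against 8 and 5 in the chow pair. Of 2246 probe sets without a single gene name 1318 were measured, of which 31 passed 2-fold upwards and 26 downwards (4.32%).

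**Figure D1:**
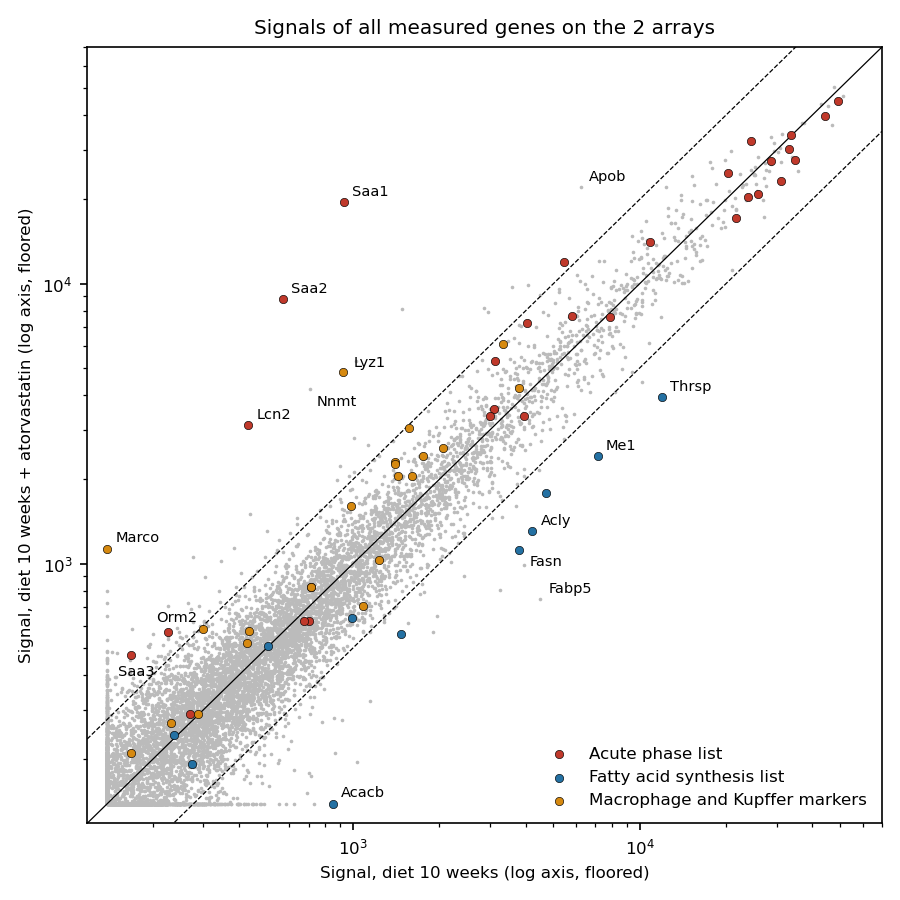
Signal of each of the 9314 measured genes on the array of the diet alone (horizontal axis) and of the diet with atorvastatin (vertical axis), both logarithmic and floored at 138.9; the solid line marks equality, the dashed lines 2-fold, and coloured points are members of 3 gene lists. Saa1, Saa2 and Lcn2 stand far above the upper dashed line, the bright fatty acid synthesis genes lie below the lower one, and most other genes lie between the lines.

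A ratio between 2 arrays does not show which of them stands apart, so each gene past 2-fold was placed against the other 3 arrays. Of the 201 genes higher with atorvastatin, 61 (30.3%) had only the atorvastatin array outside the range of the other 3, 44 (21.9%) only the diet array, 87 (43.3%) both, on the same or on opposite sides, and 9 neither. Of the 202 lower genes, the atorvastatin array alone was outside for 24 (11.9%) and the diet array alone for 84 (41.6%), with 89 (44.1%) showing both and 5 neither. Among the lower genes it was therefore more often the diet array that departed from the rest. Counting instead genes at least 2-fold outside the range of all other 4 arrays, the atorvastatin array had 34 of 9851 (0.345%), 26 above and 8 below. The same count was 70 (0.711%) for the diet at 10 weeks, 43 (0.437%) for chow at 10 weeks, 21 (0.213%) for the diet at 1 week and 15 (0.152%) for chow at 1 week. The atorvastatin array was thus not the one with the most genes of its own. At 4-fold above the other 4 it had 4 genes, against 2 on the diet array and 0 on each of the others. At 4-fold below, the diet array had 2, chow at 1 week 1 and each of the others, the atorvastatin array included, 0.

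**Figure D2:**
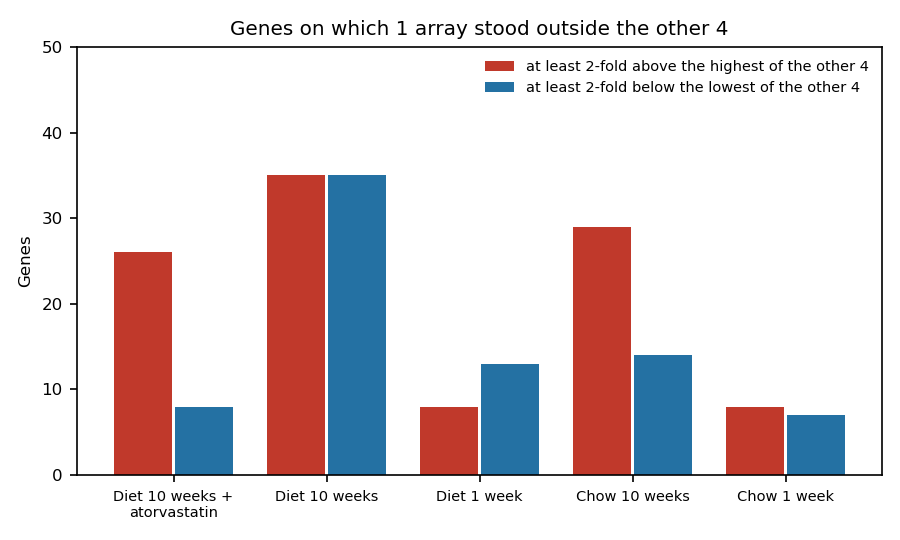
Number of genes, of 9851 measured on at least 1 of the 5 arrays, whose signal on the named array was at least 2-fold above the highest (red) or below the lowest (blue) of the other 4 arrays. The array of the diet at 10 weeks has 35 on each side, and the atorvastatin array 26 above and 8 below.

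Of the 4 genes with the largest ratios, 3 encode secreted proteins of the acute phase response, Saa1, Saa2 and Lcn2; the other is the macrophage gene Marco. Saa1, a serum amyloid A carried on HDL in inflammation, had a signal of 19553 with atorvastatin, 929 on the diet alone, 754 on the diet at 1 week, 778 on chow at 10 weeks and 1094 on chow at 1 week. The 4 arrays without the drug lay close together and the atorvastatin array lay 17.9-fold above the highest of them. Against the diet alone Saa1 was 21.0-fold higher (log2 4.40), and its second probe set gave a log2 ratio of 4.26, with 14806 against 774.

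Saa2, the neighbouring and nearly identical serum amyloid A gene, had 8826 with atorvastatin against 570 on the diet, 311 on the diet at 1 week, 309 on chow at 10 weeks and 410 on chow at 1 week, 15.5-fold higher than on the diet (log2 3.95). Its probe set is of a kind that can cross-hybridise, so signals of Saa1 and Saa2 could be mixed by the array. Lcn2, lipocalin 2, an iron-scavenging protein of innate defence, had 3132 with atorvastatin against 431, 531, 452 and 530 on the diet at 10 weeks, the diet at 1 week, chow at 10 weeks and chow at 1 week. It was 7.27-fold higher than on the diet (log2 2.86) and 5.90-fold above the highest of the other 4. Saa1, Saa2 and Lcn2 were the only genes at least 4-fold higher with atorvastatin than on every other array while those other 4 lay within 2-fold of each other.

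The promoters of these genes are shown because the genes share this pattern and 2 of them are neighbours. The 250 bases before the annotated start are given 5′ to 3′ on the gene's strand, from RefSeq on the build GRCm38.p6, with capitals marking the letters TTGCNNAA, a C/EBP motif searched on both strands. The windows lie at chr7:46742981-46743230 on the minus strand for Saa1, chr7:46751583-46751832 on the plus strand for Saa2 and chr2:32387740-32387989 on the minus strand for Lcn2.
Saa1: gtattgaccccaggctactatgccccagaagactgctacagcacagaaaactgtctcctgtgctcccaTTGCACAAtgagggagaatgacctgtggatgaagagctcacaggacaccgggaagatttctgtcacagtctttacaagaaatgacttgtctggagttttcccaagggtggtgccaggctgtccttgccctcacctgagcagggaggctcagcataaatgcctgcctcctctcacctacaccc
Saa2: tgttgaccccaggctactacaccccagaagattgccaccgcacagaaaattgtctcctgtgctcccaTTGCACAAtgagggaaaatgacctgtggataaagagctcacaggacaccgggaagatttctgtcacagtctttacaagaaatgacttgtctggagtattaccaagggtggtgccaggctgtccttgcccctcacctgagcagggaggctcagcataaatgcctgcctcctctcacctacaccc
Lcn2: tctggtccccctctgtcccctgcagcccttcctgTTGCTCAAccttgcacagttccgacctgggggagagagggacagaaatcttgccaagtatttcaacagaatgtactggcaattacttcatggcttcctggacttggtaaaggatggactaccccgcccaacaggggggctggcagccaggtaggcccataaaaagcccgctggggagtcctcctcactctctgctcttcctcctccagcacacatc

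The Saa1 and Saa2 windows were identical at 238 of 251 alignment columns (94.8%). The motif begins at -182 from the start in Saa1, at -183 in Saa2 and at -216 in Lcn2, and TTGCNNAA also stands in the windows of Saa3 at -99 and Orm2 at -120. It occurs in 9.56% of all 32851 promoter windows of the table and in 9.36% of the 203 windows of the genes at least 2-fold higher, so these genes as a group held it about as often as any. A near-fixed 10-base form of the NF-kB motif was found in 0.356% of all windows, and the letters TTCNNNGAA for STAT3 in 7.02%. Both were searched on both strands, and neither stands in the Saa1, Saa2 or Lcn2 windows. Looser forms of the NF-kB motif were not searched, so the search does not show that these windows lack them. A match is a description of letters and not a measured binding site.

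The acute phase list as a whole did not follow Saa1, Saa2 and Lcn2. Of 33 listed genes 30 were measured, with 17 positive and 13 negative ratios. At least 2-fold higher were 6, where 2.16% of all genes were, and 0 were lower. The 6 were Saa1, Saa2, Lcn2, Orm2, Saa3 and Mt1. With Saa1, Saa2 and Lcn2 included, the list's median log2 ratio was 0.14 beside -0.02 for all genes. Orm2, an orosomucoid, had 569 with atorvastatin, 227 on the diet, 152 on the diet at 1 week, 179 on chow at 10 weeks and 225 on chow at 1 week, 2.51-fold higher than on the diet and above all other arrays. Apcs, serum amyloid P, pointed the same way with 7207 against 4051, 2467, 3166 and 3693 (log2 0.83), also the highest of the 5, but did not reach 2-fold.

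For Saa3 and Mt1 it was the diet array that lay low. Saa3, an amyloid A gene of macrophages and other cells, had 471 with atorvastatin and 168 on the diet, but 369, 312 and 450 on the diet at 1 week, chow at 10 weeks and chow at 1 week. Mt1, a metallothionein, had 11956 and 5422, with 14894, 20193 and 10652 on the same 3 arrays, and its second probe set gave only 0.24. Neither gene was therefore set apart by the atorvastatin array alone.

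Several other acute phase genes had ratios under 2-fold, in both directions. Crp, C-reactive protein, had 7570 and 7895 (log2 -0.06). Hamp, which encodes the iron hormone hepcidin, had 20441 and 23882 (-0.22). The haptoglobin gene Hp had a log2 ratio of 0.40, Orm1 of 0.39, the fibrinogen genes Fga and Fgb of -0.42 and -0.33, and the negative acute phase genes Alb and Ttr of -0.14 and -0.16. Saa4, the constitutive serum amyloid A gene, had 3365 and 3935 (-0.23). Its second probe set gave 0.00. On chromosome 7 the gene order runs Saal1, Saa3, Saa4, Saa1, Saa2, Hps5, so the 2 genes with the large ratios are adjacent. Saa4, next to Saa1, did not share the ratio, Saa3 beyond it was 2.80-fold higher, and Saal1 had -0.72 from one probe set and 1.11 from the other. Hps5, next to Saa2, has no value here.

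**Figure D3:**
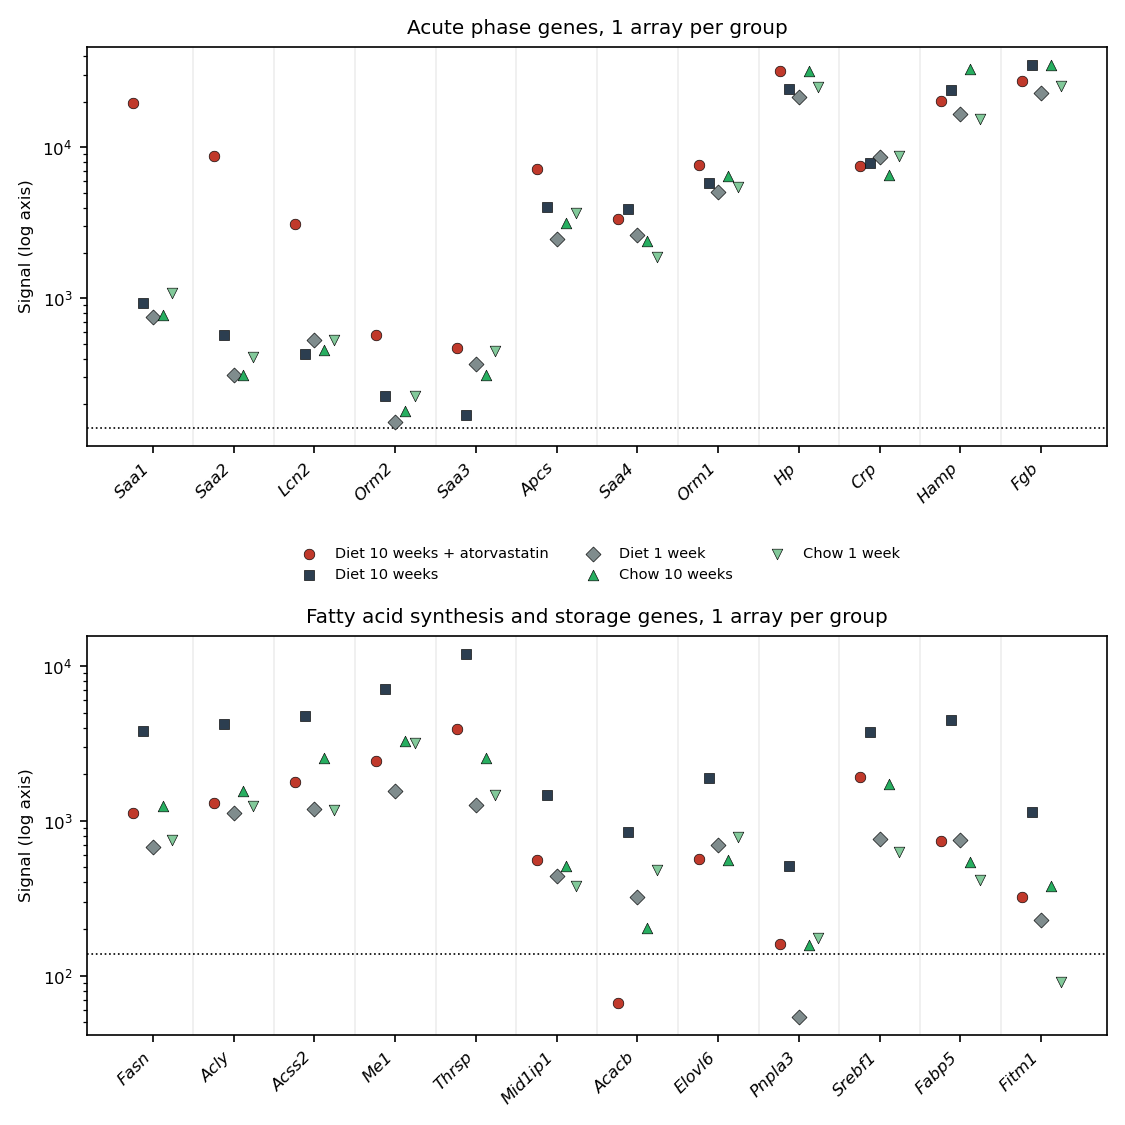
Signals on the 5 arrays (1 point per array, logarithmic axis, dotted line at the floor of 138.9) for genes of the acute phase list (top) and of fatty acid synthesis and storage (bottom). In the top panel the atorvastatin array stands alone for Saa1, Saa2 and Lcn2; in the bottom panel the array of the diet at 10 weeks stands above the other 4 for every gene shown.

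Genes that carry the inflammatory signal inside the liver cell had a median log2 ratio of 0.02, beside -0.02 for all genes. Of 33 measured IL-6, IL-1 and TNF signalling genes, 2 passed 2-fold upwards, where 2.16% of all genes did, and 0 downwards. Both had the diet array at the floor: Il1r1, the IL-1 receptor, had 395 with atorvastatin and 64.4 on the diet, but 291, 351 and 162 on the diet at 1 week, chow at 10 weeks and chow at 1 week. Bcl3, a regulator of NF-kB, had 326 and 17.1, with 308 to 408 on the other 3. The adhesion molecules Vcam1 (738 and 388, log2 0.93, second probe set 0.54) and Icam1 (296 and 170, 0.80) were higher without reaching 2-fold. The chemokine Cxcl1 had 252 on the atorvastatin array and was under the floor on the other 4, at least 1.81-fold higher. Among 33 measured chemokines, interleukins and their receptors 2 were higher, Il1r1 and Ccl6 (616 and 308, second probe set 0.58), and 0 lower, with a median of 0.12. The shares among all genes were 2.16% higher and 2.17% lower.

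Most macrophage markers had higher signals with atorvastatin. Of 22 listed macrophage and Kupffer cell markers 21 were measured, and 19 had a positive ratio and 2 a negative one. The median log2 ratio was 0.41 beside -0.02 for all genes. At least 2-fold higher were 2, where 2.16% of all genes were, and 0 were lower. Marco, a scavenger receptor of resident macrophages, had 1130 with atorvastatin and 123 on the diet, with 289 on the diet at 1 week, 99.2 on chow at 10 weeks and 319 on chow at 1 week. This is at least 8.14-fold higher than on the diet and 3.54-fold above the highest of the other 4. Lyz1, a lysozyme gene, had 4850 against 924, 1134, 355 and 842, 5.25-fold higher than on the diet, with log2 ratios of 0.88 and 1.34 from its other probe sets. Lyz1 is nearly identical to Lyz2, so the array could mix their signals.

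Other members showed the atorvastatin array as the highest of the 5 at smaller ratios. Lyz2, the lysozyme gene of macrophages, had 3060 against 1562 on the diet (log2 0.97) and 997 to 1040 on the other 3. Cd5l, a secreted macrophage protein, had 6110 against 3344 (0.87), and C1qa, a complement subunit made by Kupffer cells, 2302 against 1404 (0.71). Ctss was at 0.47. Laptm5 was at 0.96, but its other probe sets gave -0.46 and 0.55. The exceptions were Adgre1, which encodes the macrophage marker F4/80, with 707 against 1085 (-0.62), and the mannose receptor gene Mrc1 (-0.26).

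The summed signal of the list was 39681 with atorvastatin, 25252 on the diet, 20872 on the diet at 1 week, 15957 on chow at 10 weeks and 23471 on chow at 1 week. The list also separated arrays that share a feed: its median was -0.62 for chow at 10 weeks over chow at 1 week, with 0 higher and 5 lower. In bulk liver RNA, more cells of a type and more RNA per cell cannot be told apart. Saa3 and Lcn2 are also made by macrophages and neutrophils, and the part of such cells in their signals was not tested. Of 15 neutrophil markers 10 were measured, 2 had a positive ratio and 8 a negative one, and the median was -0.15. Their summed signal was 2482 with atorvastatin and 2945 on the diet, with 1915 to 2147 on the other 3. Camp and Cd177 were below the floor on all arrays.

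Some matrix genes also had higher signals. Of 34 measured genes of extracellular matrix and fibrosis 6 passed 2-fold on the higher side, where 2.16% of all genes did, and 0 on the lower. The median log2 ratio was 0.31, and 0.14 with a floor at the 60th percentile or with the probe sets of a gene averaged. Lgals3, galectin-3, a lectin abundant in activated macrophages, had 895 with atorvastatin against 305, 269, 211 and 266 on the diet, the diet at 1 week, chow at 10 weeks and chow at 1 week. It was 2.93-fold higher than on the diet, and the atorvastatin array stood above a narrow band of the other 4. Col1a1, a chain of type I collagen, had 292 against 85.4 (at least 2.10-fold), Col5a2 304 against 34.6 (at least 2.19-fold) and Tgfb1, a profibrotic cytokine, 290 against 136 (at least 2.09-fold), all dim signals. The metalloproteinase inhibitors Timp3 (721 and 137) and Timp2 (675 and 314) passed 2-fold in 1 probe set each, while their other probe sets gave 0.17 to 0.51 for Timp3 and -0.88 to 0.58 for Timp2. Stellate and fibroblast markers had a median of 0.16 over 11 measured genes, with 9 positive ratios.

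Fatty acid synthesis genes were lower with atorvastatin than on the diet alone, and close to the chow arrays. Of 13 listed genes 11 were measured, and 7 were at least 2-fold lower, where 2.17% of all genes were, and 0 higher. The median log2 ratio was -1.40 beside -0.02 for all genes. Fasn, fatty acid synthase, had 1122 with atorvastatin, 3783 on the diet, 679 on the diet at 1 week, 1244 on chow at 10 weeks and 751 on chow at 1 week, 3.37-fold lower than on the diet (log2 -1.75). The diet array was the highest of the 5, and the atorvastatin array lay between the chow arrays.

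Acly, ATP citrate lyase, which supplies acetyl-CoA, had 1310 with atorvastatin against 4222 on the diet, with 1121, 1570 and 1252 on the other 3, and all its probe sets pointed the same way (log2 -1.69, others -1.86 and -1.12). Acss2, acetyl-CoA synthetase, had 1791 against 4728 (-1.40, second probe set -1.59), and Me1, malic enzyme, which supplies NADPH, 2426 against 7125 (-1.55, second probe set -0.99). Thrsp, the lipogenic regulator Spot 14, had 3924 against 11944, with 1274, 2540 and 1475 on the other 3 (-1.61, second probe set -2.01). Its relative Mid1ip1 had 558 against 1467 (-1.39). For Thrsp and Mid1ip1 the atorvastatin array lay below the diet array and above the other 3. Against the diet at 1 week its log2 ratio was 1.62 for Thrsp and 0.33 for Mid1ip1.

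Acacb, the acetyl-CoA carboxylase that restrains fatty acid oxidation, had 66.5 with atorvastatin, under the floor, against 851 on the diet, 324 on the diet at 1 week, 203 on chow at 10 weeks and 484 on chow at 1 week, at least 6.13-fold lower than on the diet. It was the only one of the 7 with the atorvastatin array below all others. Acaca, the carboxylase of de novo synthesis, had a log2 ratio of -0.52 at dim signals of 192 and 275, Pgd of the pentose phosphate pathway -0.64 (other probe sets -1.15 to 0.08), and the mitochondrial enzymes Mcat and Oxsm 0.00 and 0.04 (second Oxsm probe set -0.47).

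The list median was 1.12 for the diet over chow, both at 10 weeks, and -0.17 for atorvastatin on the diet over the same chow array. These values share arrays with the main comparison and are given side by side, not as separate evidence. Against the diet at 1 week the atorvastatin array had a list median of 0.47, so the lower median was not seen against that array.

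The promoter of Fasn, a bright gene of this list, is shown with capitals at the CCAAT box, an element of lipogenic promoters. The 250 bases before the start lie at chr11:120824548-120824797 on the minus strand of GRCm38.p6, from RefSeq, printed 5′ to 3′ on the gene's strand.
Fasn: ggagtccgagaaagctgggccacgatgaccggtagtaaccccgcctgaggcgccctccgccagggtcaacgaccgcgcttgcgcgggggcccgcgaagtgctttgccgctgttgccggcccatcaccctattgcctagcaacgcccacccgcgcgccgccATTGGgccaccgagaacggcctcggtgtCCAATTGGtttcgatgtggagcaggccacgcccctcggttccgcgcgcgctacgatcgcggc

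CCAAT, searched on both strands, stands at -90, -62 and -59 in this window, the last 2 overlapping. The windows of Acacb, Thrsp, Me1 and Acss2 also hold it, while those of Acly and Mid1ip1 do not. It is common, with 33.8% of all windows and 35.6% of the 216 windows of genes at least 2-fold lower. The letters TCACNCCAC for SREBP, searched likewise and present in 1.05% of all windows, do not stand in the Fasn window. Other forms of the SREBP motif were not searched, so the search does not show that the window lacks them.

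Genes around this pathway showed the same arrangement of arrays. Elovl6, which elongates palmitate, had 568 with atorvastatin, 1902 on the diet and 558 to 783 on the other 3 (log2 -1.74, second probe set -1.28). Pnpla3, a lipid droplet protein regulated with lipogenesis, had 161 against 509, with 54.2, 158 and 174 on the other 3 (-1.66). Pklr, liver pyruvate kinase, had 1011 against 2203 (-1.12), with -2.76 and -2.02 from its other probe sets.

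The genes of SREBP-1c and ChREBP had lower signals without reaching 2-fold. Srebf1 had 1924 with atorvastatin, 3729 on the diet, 764 on the diet at 1 week, 1737 on chow at 10 weeks and 625 on chow at 1 week (log2 -0.95). Mlxipl had 1860 against 3047 (-0.71), the highest of the 5 again being the diet array. Other factors of the list of lipogenic regulators lay on the other side, with Mlx, the partner of ChREBP, at 0.50 and Nr1h3, which encodes LXR alpha, at 0.26; the 8 measured members had 2 lower, Thrsp and Pnpla3, 0 higher and a median of -0.30. Scd1, the main hepatic desaturase, had 25285 against 35632 (-0.49) in its brightest probe set and 4937 against 18897 (-1.94) in the other, so the size of its difference is not settled. Fads1 had 4685 against 7445 (-0.67). The 14 measured desaturases and elongases had 1 member lower and 0 higher, with a median of -0.27.

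The largest ratio on the lower side with both arrays above the floor was that of Fabp5, a fatty acid binding protein, with 745 with atorvastatin and 4497 on the diet, against 755, 542 and 413 on the diet at 1 week, chow at 10 weeks and chow at 1 week. It was 6.04-fold lower (log2 -2.59), and its second probe set gave -2.33. Fitm1, which promotes droplet formation, had 323 against 1146 (-1.83), with 229, 379 and 90.8 on the others. For both genes the diet array stood above 4 arrays that included the atorvastatin array. Lipid droplet genes as a list had a median of -0.23, with 2 of 14 measured members lower, where 2.17% of all genes were, and 0 higher. Triglyceride assembly genes had a median of -0.23 with 0 of 13 past 2-fold. Mitochondrial beta-oxidation had 0 of 18 past 2-fold and a median of 0.03. PPAR alpha targets had a median of -0.01 with Acot1 as the only one of 20 past 2-fold (2649 against 1125, with 3554 to 4621 on the other 3).

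Genes of cholesterol synthesis, the pathway that the drug inhibits, differed little between the 2 arrays. Of 9 genes of the mevalonate arm 7 were measured, 1 passed 2-fold on the higher side and 0 on the lower, and the median log2 ratio was 0.15. Of 13 genes from squalene to cholesterol 12 were measured, 1 was higher and 0 lower, with a median of -0.02. Among all genes 2.16% were higher and 2.17% lower.

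Hmgcs1, HMG-CoA synthase, had 6416 with atorvastatin against 3654 on the diet, 2776 on the diet at 1 week, 3578 on chow at 10 weeks and 3422 on chow at 1 week (log2 0.81). Its 3 other probe sets gave -0.63 to -0.12, so the gene has no settled direction. Mvk, mevalonate kinase, had 341 with atorvastatin and was under the floor on all other arrays (74.3 on the diet), at least 2.45-fold higher. Idi1, isopentenyl diphosphate isomerase, had 1295 against 893 (0.54, second probe set 0.87), with 175, 663 and 259 on the other 3. Fdps, farnesyl diphosphate synthase, lay the other way with 1772 against 2814 (-0.67), with 240, 1198 and 422 on the others.

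In the sterol arm Cyp51, lanosterol demethylase, had 512 with atorvastatin and 217 on the diet, with 98.5, 500 and 176 on the diet at 1 week, chow at 10 weeks and chow at 1 week (log2 1.24). Its second probe set gave -0.13. Msmo1, which removes methyl groups from sterols, had 2428 against 1230 (0.98), with 130 to 204 on the other 3, so both 10-week diet arrays stood far above the rest. Fdft1, squalene synthase, was equal with 1289 and 1296 (-0.01), both above the 441 to 471 of the others, while its other probe sets gave -0.77 to 0.42.

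Sqle, squalene epoxidase, had 637 against 578 (0.14), and again both were higher than the 201 to 345 of the other 3 arrays. Sc5d, a late desaturase, was lower with 4116 against 8191 (-0.99, second probe set -1.21). Lss was at -0.48, Tm7sf2 at 0.72 and Nsdhl at -0.04.

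Over the diet at 1 week the atorvastatin array had medians of 1.21 and 1.14 for the mevalonate and sterol arms, beside 0.11 for all genes. Without the drug, the diet at 10 weeks over the diet at 1 week had 1.11 and 0.99. Chow at 10 weeks over chow at 1 week had 0.24 and 0.59. Over chow at 10 weeks the atorvastatin array had 0.58 and 0.06, beside 0.04 for all genes. The diet alone over chow, both at 10 weeks, had 0.54 and 0.05, so the 2 diet arrays of 10 weeks lay at about the same distance from chow for these genes.

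**Figure D4:**
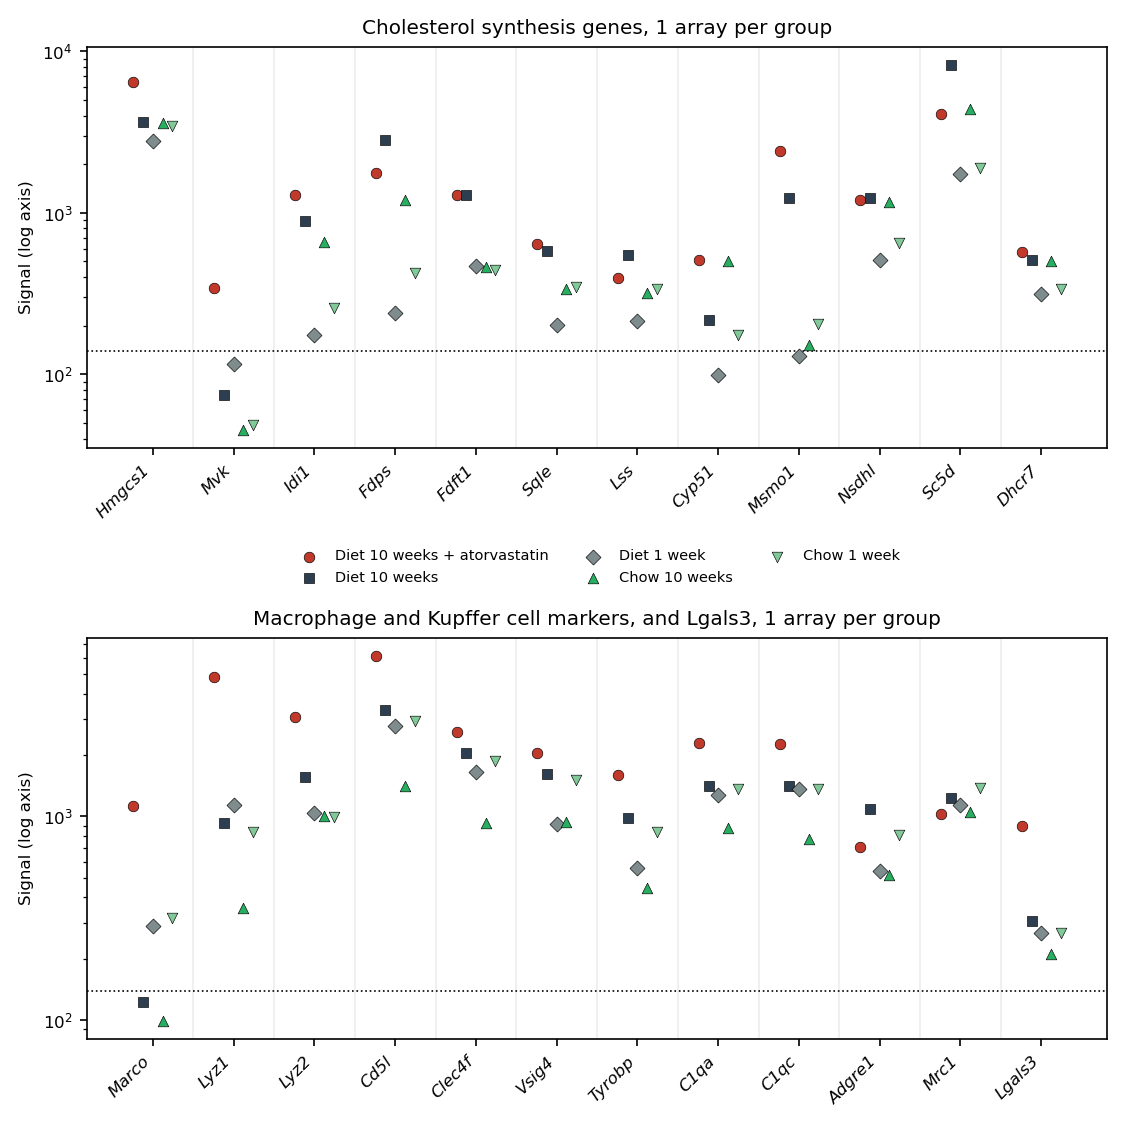
Signals on the 5 arrays (1 point per array, logarithmic axis, dotted line at the floor of 138.9) for genes of cholesterol synthesis (top) and for macrophage and Kupffer cell markers with Lgals3 (bottom). In the top panel Fdft1, Sqle and Msmo1 are high on both 10-week diet arrays, with and without the drug; in the bottom panel the atorvastatin array is the highest for every gene but Adgre1 and Mrc1.

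Regulators and users of sterols were also near equality. Of 10 measured genes of sterol sensing and uptake 0 passed 2-fold in either direction, with a median of 0.03. Srebf2, which encodes SREBP-2, had 573 and 518 (log2 0.15, second probe set -0.24), and Stard4, a cholesterol carrier and SREBP-2 target, 1169 and 1519 (-0.38), both above the 283 to 537 of the other arrays. Lipa, lysosomal acid lipase, had 2536 against 3991 (-0.65, other probe sets -1.70 and -0.82), and Lrp1, a lipoprotein receptor, 2113 against 1395 (0.60).

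LXR targets and sterol exporters had a median of -0.31 with 0 of 11 past 2-fold. The canalicular sterol transporters Abcg5 (2684 and 4126, log2 -0.62) and Abcg8 (1448 and 2361, -0.71) were both lower, and the diet array was the highest of the 5 for both. Abcb11, the bile salt export pump, had 2776 against 5423 (-0.97) and Scarb1, the HDL receptor, 3741 against 2122 (0.82, other probe sets 0.23 and 1.12). Prenyltransferases and the small GTPases they modify, which depend on mevalonate, had 0 of 21 past 2-fold and a median of -0.17. Rhob was at 0.70 (1492 and 920), Rhoa at -0.33 (1938 and 2439) with 0.40 from its other probe set and Icmt, the methylase of prenylated proteins, at -0.60. Nos3, the endothelial nitric oxide synthase, had 332 and 372 (-0.16).

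Bile acid synthesis, the main route by which cholesterol is broken down, had 1 of 18 measured genes higher and 0 lower, with a median of 0.11. Cyp7a1, the rate-limiting enzyme, had 2627 with atorvastatin, 1772 on the diet, 1096 on the diet at 1 week, 2797 on chow at 10 weeks and 2277 on chow at 1 week (log2 0.57), so by this probe set the atorvastatin value lay among those of chow. Its second probe set had 1310 against 576, with 208, 664 and 945 on the same other arrays (log2 1.19), and there the atorvastatin array was the highest of the 5. Cyp8b1, which sets the share of cholic acid, had 4662 against 2338 (1.00, just under 2-fold), with 5935 to 7229 on the other 3. Cyp39a1 had 893 against 443 (1.01), with 1056 to 2915 on the other 3. For Cyp8b1 and Cyp39a1 the diet array was the lowest and the atorvastatin array the next. Nr0b2, the repressor SHP, had 1134 against 2022 (-0.83), again with the diet array highest.

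Several genes of hepatocyte function that were higher with atorvastatin had their lowest value of the 5 arrays on the diet array. Apob, the structural protein of VLDL, had 22047 with atorvastatin, 6219 on the diet, 20134 on the diet at 1 week, 20895 on chow at 10 weeks and 22320 on chow at 1 week, 3.55-fold higher than on the diet (log2 1.83). The diet array was alone in being low. Of 22 measured apolipoprotein and lipoprotein remodelling genes Apob was the only one past 2-fold, and the list median was 0.10.

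Nnmt, nicotinamide N-methyltransferase, had 4188 with atorvastatin, 708 on the diet and 3813 to 5637 on the other 3, 5.92-fold higher (log2 2.56). Asl, argininosuccinate lyase of the urea cycle, had 7892 against 2947, with 11298 to 12798 on the others (1.42). C8b and C8a, subunits of the terminal complement complex, had 1057 against 276 (1.94) and 1983 against 880 (1.17), with 860 to 1040 and 1968 to 2682 on the others. For Nnmt and C8a the atorvastatin array lay inside the range of the other 3, for C8b just above it and for Asl below it.

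Drug-metabolising genes showed no common shift. The 36 measured cytochromes P450 and regulators had 1 higher and 1 lower, beside 2.16% and 2.17% of all genes, and a median of 0.04. Cyp3a11, a main target of the xenobiotic receptor PXR, had 22672 and 25510 (log2 -0.17), and Cyp2b10, a target of CAR, 7078 and 3847 (0.88), with 2588, 6550 and 8474 on the diet at 1 week, chow at 10 weeks and chow at 1 week. Cyp2c54 had 8179 against 2870 (1.51), with 5904 to 8016 on the others, and Cyp2c38 2164 against 4448 (-1.04). These genes belong to a family of near-identical copies that the array may not separate. Glutathione and NRF2 genes had 0 of 36 past 2-fold and a median of -0.06.

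**Figure D5:**
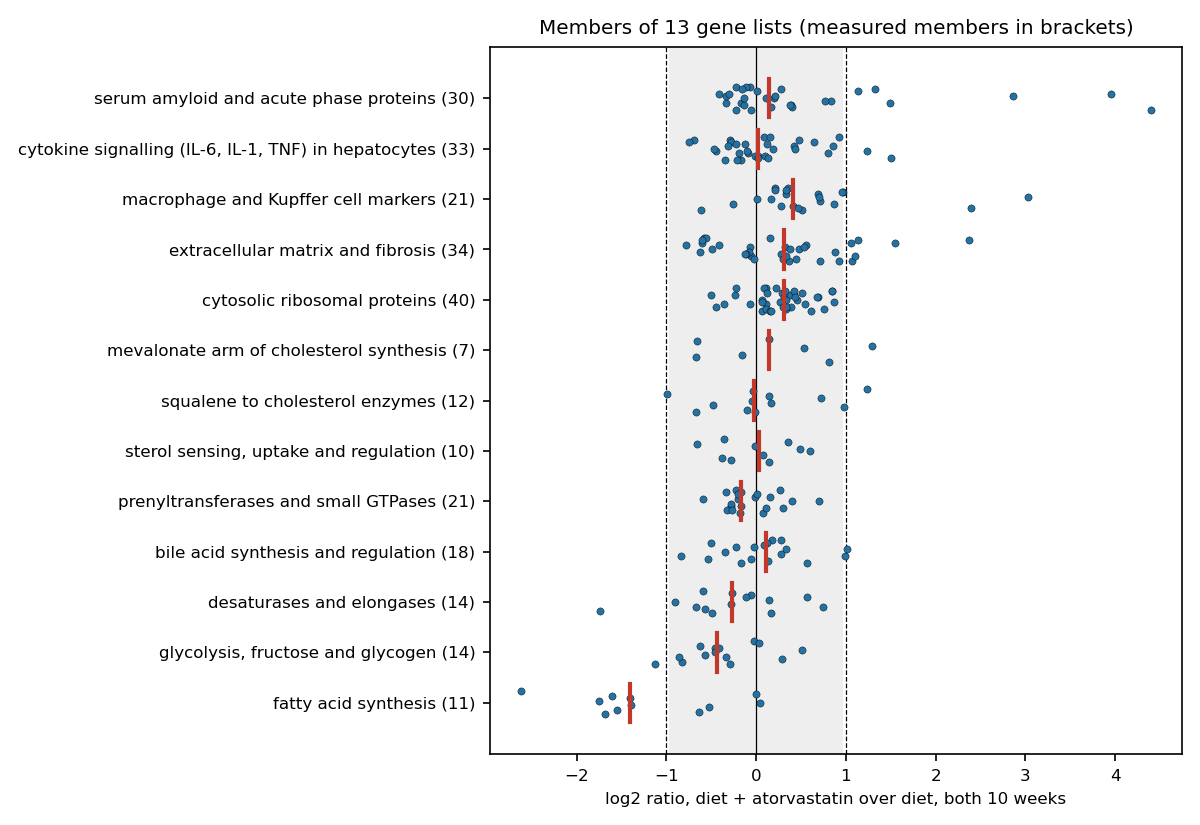
Log2 ratio of atorvastatin on the diet over the diet alone for the measured members of 13 gene lists (points), with the list median (red bar), dashed lines at 2-fold and a grey band that holds 95% of all measured genes. Fatty acid synthesis has its median at -1.40; the medians of the other lists lie between -0.43 and 0.41, inside the grey band, and the acute phase list has 3 far outliers at 2.86 to 4.40.

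Most ribosomal protein genes had slightly higher signals with atorvastatin. Of 76 listed genes 40 were measured, 34 had a positive ratio and 6 a negative one, 0 passed 2-fold, and the median was 0.31. Rpl27 had 9549 with atorvastatin, 5235 on the diet, and 4668 to 6306 on the other 3 (log2 0.87, other probe sets 0.39 and 0.42), and Rplp2 8501 against 5043 (0.75), with 7271 to 8294 on the others. Glycolysis, fructose and glycogen genes leaned the other way with a median of -0.43, with 11 of 14 negative and Pklr as the only one past 2-fold. Heat shock proteins (0.01, 0 of 13 past 2-fold), ER stress (-0.02, 0 of 28), gluconeogenesis (-0.06, 0 of 17) and the respiratory chain (0.03, 1 of 55 lower, Ndufa10 with 1607 against 3710) were near equality.

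The other cell type markers were few or moved in both directions. Fat markers had 2 of 7 measured, Fabp4 and Retn, both positive, with a median of 0.59. Other probe sets of Fabp4 gave -0.67 and 0.59, and Retn had the diet array at the floor. The summed signal of fat markers was 721 with atorvastatin, 412 on the diet and 465 to 635 on the other 3. Adipoq, Lep and Cidea were below the floor on all arrays. Muscle markers had 3 of 8 measured, all positive, with a median of 0.20, monocyte markers 4 of 10 with a median of -0.27 and pancreas markers 4 of 12 with a median of -0.10. T, B and NK cell markers had a median of -0.15 over 10 measured genes and endothelial markers of -0.07 over 13, with 2 lower, Cdh5 and Oit3. Cdh5, the cadherin of endothelial junctions, had 196 with atorvastatin against 1034 on the diet and 255 to 406 on the other 3 (log2 -2.40), but its second probe set gave -0.48. Red blood cell markers had a median of -0.46 over 5 genes, with Alas2 lower at 164 against 438. Of the bile duct list only 3 of 10 genes were measured, with Krt23 at 128 against 553 and 413 on the diet at 1 week, and Epcam, Sox9 and Krt7 below the floor on all arrays.

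Several of the largest ratios rested on 1 probe set of a gene. Hnrnpab, an RNA-binding protein, had 8127 with atorvastatin and 1477 on the diet (log2 2.46), while its 4 other measured probe sets gave 0.58 to 0.83. Ampd2 had 175 against 716 (-2.04) and 0.26 from its other probe set, and Arhgap9 178 against 704 (-1.98) and -0.27. Rgs16, a regulator of G protein signalling, was uniform across its probe sets, with 806 against 3254 (-2.01) and -1.80 and -1.63 from the others. Of the 201 higher genes 53 had another measured probe set, and for 4 of them (7.55%) at least 1 of these was also 2-fold higher. Of the 202 lower genes 57 had another, and 10 (17.5%) had 1 also 2-fold lower. In the chow pair these shares were 14.1% of 78 higher and 4.76% of 63 lower genes.

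Of the 8 genes at least 2-fold lower with atorvastatin than on every other array, Nucks1 and Dusp2 alone had an atorvastatin signal above the floor. Nucks1, a nuclear protein of chromatin, had 648 with atorvastatin against 1958, 2219, 2133 and 2100 on the diet at 10 weeks, the diet at 1 week, chow at 10 weeks and chow at 1 week, 3.02-fold below the lowest, but its 3 other measured probe sets gave 0.08 to 0.72 against the diet. Dusp2, a phosphatase of MAP kinases, had 175 against 407 to 496. The other 6 were Kansl1, Sh3bp5l, Bace1, Nfil3, Dazap1 and Gadd45g, and for Bace1 the 3 other probe sets pointed the opposite way (0.27 to 0.93). Above all other arrays, beside the genes already given, lay dim genes such as Mmp7, a matrix metalloproteinase, with 394 against at most 64.7, Plek, a protein of leukocytes and platelets, with 413 against at most 176 (second probe set 0.31), and the leukocyte gene Ltc4s with 368 against at most 181. Nucks1, Dusp2, Mmp7, Plek and Ltc4s, and of those listed Sh3bp5l, Bace1 and Dazap1, were picked after their values were seen.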

How the data were processed

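RNA of pooled livers was measured in 5 samples, 1 Affymetrix array each. The deposited table holds an intensity for every probe set on a linear scale, made with MAS5 per the submitters' processing notes; detection calls were not used here. Arrays were brought to the same 2% trimmed mean (500.2), which barely changed the values, and 64 control probe sets were dropped. Of the 22690 probe sets, 20380 that are not controls carry a single symbol in the platform annotation and were used, for 12393 genes; the remaining 2246 have several symbols or are not listed there. Of the Entrez identifiers of the named ones 99.81% matched the RefSeq table for GRCm38.p6. Signals were floored at 138.9 (40th percentile of non-control signals), taken to log2, and each gene was given by the probe set with the highest mean log2 signal. Folds of 2 were counted without a test.

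Of 1186 genes in 41 pathway and 12 marker lists, 1016 have a named probe set. Named genes are, for each direction, the 15 largest ratios measured on both arrays and up to 6 bounds, then list members past 2-fold with up to 4 more, and 27 preset genes, 23 of them with a named probe set; clone names were passed over, and further list members complete a description. The members and lists were chosen with earlier results of these data known. Counting was tested on simulated data. Alternatives covered the scaling, floor, probe set, fold and reference array. Python 3.11.15, numpy 2.4.6, pandas 2.3.3, R 4.3.3 and limma 3.58.1 were used.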

Additional observations from a re-analysis of the deposited data

Results flagged for a closer look

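The control probe sets for 18S ribosomal RNA, which enter no comparison, had a geometric mean signal of 13944 on the atorvastatin array, 6.38 times the highest of the other arrays, chow at 1 week with 2185. The 10-week diet array had 1002. The 3' to 5' ratio of the beta-actin control was 1.32 on the atorvastatin array and 1.17 to 1.73 on the others. What this control signal means for the gene signals was not tested.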

How the results depend on the processing

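No paired analysis was possible because each group has 1 array. The counts of 201 genes higher and 202 lower stayed within 1.5 times with no rescaling, quantile normalization, cyclic loess and x and s probe sets left out. They were 696 and 642 with a floor at the 20th percentile, 60 and 59 at the 60th, 107 and 116 with a pseudocount in place of the floor, 847 and 950 at 1.5-fold and 27 and 32 at 3-fold. Averaging a gene's probe sets gave 131 higher. Genes outside the other 4 arrays were 185, 11 and 18 under the 20th percentile, the 60th and the pseudocount, against 34. The extracellular matrix median was 0.14 at the 60th percentile and 0.14 with averaged probe sets.

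Other reference arrays changed list medians. The mean of both diet arrays gave 106 genes lower, and list medians of 1.01 for the mevalonate arm, 0.56 for squalene to cholesterol, -0.41 for fatty acid synthesis and 0.64 for macrophage markers. Chosen after seeing the data, the 1-week diet array as reference gave 377 genes higher and medians of 1.21, 1.14, 0.47 and 0.73 for the same lists and 0.36 for acute phase. The median of the other 4 arrays, also chosen then, gave 96 genes lower and medians of 0.87, 0.49, 0.07 and 0.55.

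Of 899 alternatives for the 82 named genes past 2-fold, 856 kept their sign and 43, over 24 genes, reversed it. Ampd2 was 0.26 with x and s probe sets left out. Over the mean of both diet arrays Cyp39a1 was -0.15, Serpina6 0.28 and Thrsp 0.01. Over the 1-week diet array the log2 ratios were Acly 0.22, Acot1 -0.56, Acss2 0.59, Aqp8 1.17, Asl -0.70, Bbc3 -0.00, C8a -0.44, Cyp2c38 0.16, Cyp39a1 -1.31, Egr1 -0.33, Fasn 0.73, Fen1 0.13, Fitm1 0.50, Me1 0.64, Mid1ip1 0.33, Mt1 -0.32, Nfic -1.46, Nfix -0.22, Pklr 1.02, Pnpla3 0.21, Serpina6 1.77 and Thrsp 1.62. Over the median of 4 arrays they were Acot1 -0.49, Acss2 0.04, Aqp8 0.38, Asl -0.55, C8a -0.01, Cyp39a1 -0.78, Egr1 -0.21, Fabp5 0.22, Fasn 0.22, Fen1 0.10, Fitm1 0.13, Mid1ip1 0.23, Mt1 -0.08, Nfic -0.79, Pklr 0.18, Serpina6 0.33 and Thrsp 1.02. The cause was not tested. Dim genes near the floor of 138.9 are measured least well.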

Other observations

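Immediate early and clock genes differed on the 2 arrays in single members. Of 23 measured immediate early genes 2 were at least 2-fold higher with atorvastatin, where 2.16% of all genes were, and 0 lower. The median log2 ratio was 0.16. Egr1, a growth-induced transcription factor, had 1502 with atorvastatin against 438 on the diet, with 1892, 1596 and 1959 on the diet at 1 week, chow at 10 weeks and chow at 1 week. Klf2, a flow-responsive transcription factor, had 687 against 272, with 296, 545 and 466 on the same 3 arrays. The diet array was the lowest of the 5 for both genes and the atorvastatin array the highest for Klf2. Of 18 measured clock genes 0 were higher and 1 lower, Nfil3, where 2.17% of all genes were lower, with a median of 0.03. Arntl, which encodes BMAL1, had 254 and 168, with 280 on the diet at 1 week and 637 and 683 on the chow arrays. Nr1d1, which encodes REV-ERB alpha and runs in opposite phase, had 772 and 930, with 1039 on the diet at 1 week and 190 and 321 on chow. The diet arrays thus lay on one side of the chow arrays for both clock genes, with or without the drug. The time of day at which the livers were taken is not given in the sources used here.

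Interferon-stimulated genes had 2 of 29 measured members lower and 0 higher, with 8 positive and 21 negative ratios and a median of -0.09. For this list and those below, the share among all genes was 2.16% higher and 2.17% lower. Ifit1 had 270 with atorvastatin against 593 on the diet and 330 to 340 on the other 3, and Psmb9, an immunoproteasome subunit, 315 against 651 and 340 to 342. Both were high on the diet array alone. Cell cycle genes had 3 of 21 lower and 0 higher, with a median of -0.04: Fen1 had 152 against 693, Ccnd1, cyclin D1, 904 against 2436 (other probe sets -1.20 and 0.08), and Cdk1 78.6 against 280. MHC class II genes had a median of 0.21 with 0 of 11 past 2-fold. Complement and coagulation genes had 2 of 36 higher, C8a and C8b, with a median of -0.02, and serpins 2 of 15 lower, Serpinh1 (218 against 595, second probe set -0.74) and Serpina6 (4446 against 10199), with a median of -0.13. Serpina6 encodes corticosteroid-binding globulin; its signals were 1306 on the diet at 1 week, 5736 on chow at 10 weeks and 2167 on chow at 1 week, a wide spread among arrays without the drug.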
